A study of Mus musculus with 90 samples.

Results

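The genes that fresh interferon gamma (IFNγ) still moved by 24 h in YUMM2.1 cells already exposed to it for 2 weeks were sought in 6 of the 90 samples of the series. YUMM2.1 is a mouse melanoma line. The members were taken by their labels: 3 samples grown with IFNγ at 50 IU/mL for 2 weeks and then given fresh IFNγ for 24 h, against 3 samples with the same 2 weeks of IFNγ and no fresh IFNγ (0 h). The series followed YUMM2.1 and the colon carcinoma line CT26 through up to 3 weeks of IFNγ or of its control, bovine serum albumin (BSA, 0 IU/mL), with a rechallenge of 0, 2 or 24 h, and counted transcripts by 3′ digital gene expression, which tags the 3′ end of each mRNA. The question was how tumour cells with a long exposure to IFNγ respond to it again.

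The comparison groups were all YUMM2.1 unless named: 2 weeks of IFNγ with 2 h of fresh IFNγ, 2 weeks of BSA, naive cells (0 weeks) with control treatment or with 24 h of IFNγ at 50 IU/mL, 1 and 3 weeks of IFNγ with 0 or 24 h of fresh IFNγ, and the CT26 pair at 2 weeks. Each group held 3 samples from what the labels call triplicate experiments. The study states in general terms that its replicates were independent, without saying how these 3 were kept apart, so the p-values measure the spread between these samples, part of which may be technical. All cells were grown in RPMI-1640 with serum and plated in 6-well dishes for the last 48 h. The study describes the exposure as continuous, with 0 h meaning no restimulation. No group had a rechallenge without IFNγ. The effect of fresh IFNγ therefore cannot be told apart from that of any handling that came with it. A single cultured line limits the groups as a model of a tumour.

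The 0 h libraries held 1093299 to 2140588 counts and the 24 h libraries 636634 to 2326871, against a median of 1403265 over the 45 YUMM2.1 samples. Of the melanocyte markers, Sox10 and Pax3 were counted in all 6 libraries, whereas Tyrp1 and Mlana were at 0. The 8 melanocyte markers summed to 49.4 to 53.6 CPM (counts scaled to a common library size) at 0 h and to 43.5 to 64.5 CPM at 24 h. Most of that sum was Sox10 and Pax3, with means of 31.05 and 17.71 CPM at 0 h. Mitf, Tyr, Dct and Pmel had means of 1.98, 0.323, 0.218 and 0.162 CPM at 0 h and of 2.03, 0.541, 3.31 and 0.662 CPM at 24 h. Leukocyte markers summed to at most 2.16 CPM in any of the 6 libraries, with Cd3e, Cd79a and Adgre1 at 0, and epithelial markers to at most 0.485 CPM. Pecam1 stood at a mean of 308 CPM at 0 h and 321 CPM at 24 h with the other endothelial marker, Cdh5, at 0. Among the fibroblast markers Col3a1 stood at 66.4 and 58.7 CPM with Col1a1 and Dcn at 0.

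IFNγ binds a receptor that activates the kinases JAK1 and JAK2, and the signal reaches GAS elements (gamma-activated sites) in promoters. One of its first targets is Irf1, which encodes a transcription factor of ISRE elements (interferon-stimulated response elements). The targets include GTPases that attack intracellular pathogens, the immunoproteasome and peptide transporters that feed MHC class I, antiviral proteins and chemokines for T cells. In tumours the same targets make cells visible to T cells and also restrain T cells, as PD-L1 (Cd274) does.

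The following promoters are shown because between them they hold letters of both elements. Gbp7 and Igtp hold both, Irf1 holds GAS alone, and Cxcl10 and Ifit3 hold ISRE alone. The 5 promoters lie upstream of genes from 5 roles in the response: a transcription factor (Irf1), a guanylate-binding protein (Gbp7), an immunity-related GTPase (Igtp), a chemokine (Cxcl10) and an antiviral gene (Ifit3). Each is the RefSeq sequence of the 250 bases before the transcript's start in the build GRCm38.p6, written 5′ to 3′ on the gene's own strand, at chr11:53769764-53770013 (plus strand) for Irf1, chr3:142530086-142530335 (plus) for Gbp7, chr11:58199306-58199555 (plus) for Igtp, chr5:92348890-92349139 (minus) for Cxcl10 and chr19:34583279-34583528 (plus) for Ifit3. Capitals mark matches to TTCNNNGAA (GAS) or to GAAANNGAAA and its other strand TTTCNNTTTC (ISRE-like).
Irf1: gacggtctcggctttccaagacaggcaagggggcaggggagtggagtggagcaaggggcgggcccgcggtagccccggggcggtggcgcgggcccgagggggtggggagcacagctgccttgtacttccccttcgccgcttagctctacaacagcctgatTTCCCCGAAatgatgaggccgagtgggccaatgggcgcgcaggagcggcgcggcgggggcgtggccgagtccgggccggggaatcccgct
Gbp7: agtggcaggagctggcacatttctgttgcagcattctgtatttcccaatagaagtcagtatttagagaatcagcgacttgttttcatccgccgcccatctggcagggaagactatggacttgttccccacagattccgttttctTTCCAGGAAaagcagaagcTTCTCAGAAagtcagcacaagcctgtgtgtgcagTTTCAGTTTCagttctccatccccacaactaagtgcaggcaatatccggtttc
Igtp: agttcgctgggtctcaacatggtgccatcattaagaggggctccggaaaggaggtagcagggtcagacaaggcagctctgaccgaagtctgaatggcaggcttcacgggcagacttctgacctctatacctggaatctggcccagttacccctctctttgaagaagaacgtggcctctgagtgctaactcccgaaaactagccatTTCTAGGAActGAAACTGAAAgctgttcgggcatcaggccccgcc
Cxcl10: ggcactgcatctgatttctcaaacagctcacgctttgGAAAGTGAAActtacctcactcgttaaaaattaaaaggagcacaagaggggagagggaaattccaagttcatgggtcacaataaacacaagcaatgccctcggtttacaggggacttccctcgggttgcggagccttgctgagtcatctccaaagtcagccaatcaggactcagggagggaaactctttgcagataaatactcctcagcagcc
Ifit3: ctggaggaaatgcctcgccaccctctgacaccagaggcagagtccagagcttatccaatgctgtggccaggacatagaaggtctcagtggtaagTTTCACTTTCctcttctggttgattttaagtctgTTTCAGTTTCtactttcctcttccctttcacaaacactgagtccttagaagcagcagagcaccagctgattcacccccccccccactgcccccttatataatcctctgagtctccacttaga

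The GAS match of Irf1 began 90 bases before its start, those of Gbp7 106 and 87 bases before and that of Igtp 45 bases before. The ISRE-like match of Cxcl10 began 213 bases before the start, and those of Ifit3 began 156 and 122 bases before. Those of Gbp7 and Igtp began 53 and 34 bases before. The RefSeq table holds 2 promoters for Irf1, and the promoter without a match is not shown. Of the 51 genes that rose at 24 h, 36 had a promoter in the RefSeq table, and GAS letters on either strand stood in 9 of them (25%) against 6.84% of the 7284 tested genes with a promoter. ISRE-like letters stood in 15 of the 36 (41.7%) against 3.27% of the tested genes. At least one of the motifs stood in 18 (50%), against 9.68%, and both in 6, with 1 overlapping pair. Of all 32851 promoters of that length in the table, 7.02% held GAS letters and 2.98% ISRE-like letters. Of the genes that fell, 7 had promoters in the table, and none of their 14 promoters held either. A match is a run of letters, not a measured binding site, and no match says only that these letters are not in this window.

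Fresh IFNγ still moved a set of interferon-response genes after 2 weeks of exposure. Of 9589 genes tested, 51 rose and 8 fell at 24 h against 0 h (edgeR's quasi-likelihood test over all YUMM2.1 samples, Benjamini-Hochberg adjusted p under 0.05), which is 0.615% of the genes tested, 0.532% for rises and 0.0834% for falls. Among the rises were guanylate-binding proteins, immunity-related GTPases, Irf1 and Il18bp, and the falls were led by the cytokine gene Il33. The risers had a median log2 fold change of 1.19 (from 0.48 upwards), against 0.01 over all genes. All 59 genes had their 3 samples at 24 h wholly on one side of the 3 at 0 h, which held for 6.13% of all genes on the high side and 5.49% on the low side. The plot of called genes gives each rise and fall with its standard error beside the value at 2 h.

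**Figure D1:**
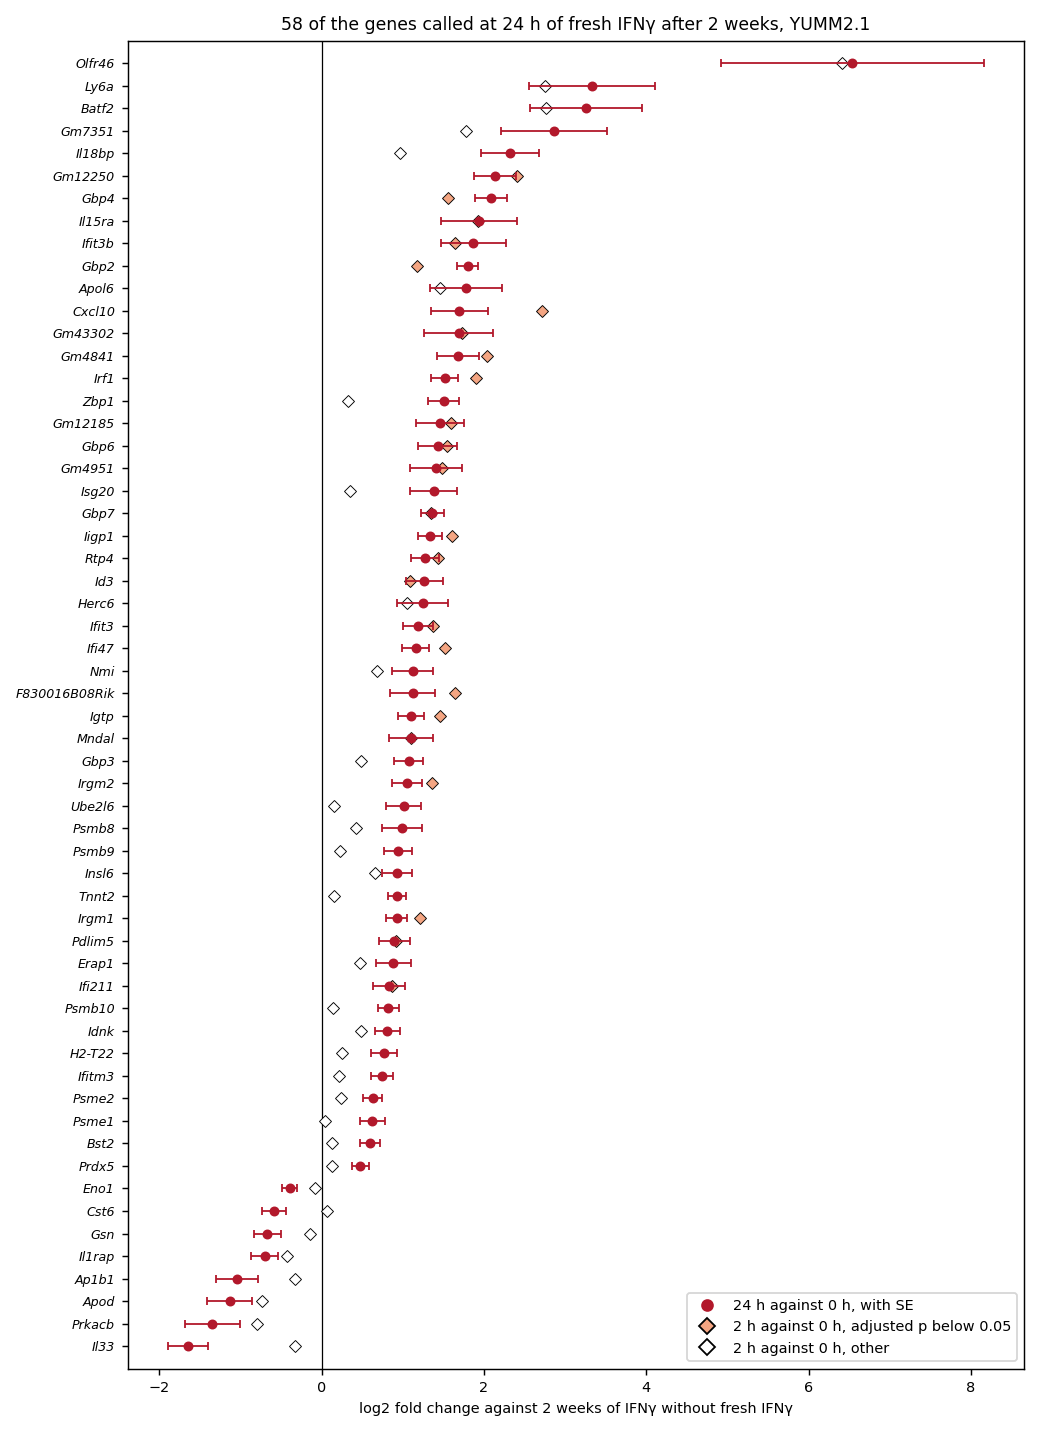
58 of the genes that passed the test at 24 h of fresh IFNγ after 2 weeks of IFNγ in YUMM2.1, one per row, against the log2 fold change on the horizontal axis. Circles with bars give the change from 0 h to 24 h with its standard error, and diamonds the change from 0 h to 2 h, filled where the adjusted p was below 0.05. The 50 risers shown stand to the right of zero and the 8 fallers to the left, and 25 of these risers have a filled diamond.

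With any 1 of the 6 libraries left out, 27 to 55 genes were called, and the lowest count, 27, came without the third 0 h library. The 24 genes called in each of these fits, and in every other fit tried without a minimum fold change, were Gbp2, Gbp3, Gbp4, Gbp6, Gbp7, Iigp1, Igtp, Irgm1, Irgm2, Ifi47, Gm12250, Gm4841, Irf1, Psmb9, Psmb10, Psme2, Zbp1, Rtp4, Ifit3, Ifitm3, Il18bp, Insl6, Tnnt2 and Il33. Each of the other 35 lost its call in at least 1 fit.

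Among the transcription factors, Irf1 (chr11:53770014-53778374, plus strand, mm10) stood at 51.0, 58.4 and 42.6 CPM at 0 h and at 182, 121 and 132 CPM at 24 h. Every 24 h sample was above every 0 h sample, and the change was 1.51 ± 0.17 on the log2 scale (SE, n = 3 per group, edgeR's quasi-likelihood test, adjusted p = 2.89e-08). Batf2, a factor of the AP-1 family, had 7 counts over the 3 libraries at 0 h and 56 at 24 h. That is a depth-corrected ratio of 9.92 with an exact 95% interval of 4.51 to 25.8, which covers counting error only, and Batf2 overlaps another gene, Arl2, so the counts may be shared.

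Of the 4 tested interferon-driven transcription factors, 2 rose, Irf1 and Batf2, with a list median of 0.95. Nlrc5, the factor of MHC class I genes, gave 0.38 ± 0.49 and Irf2 0.25, neither past the test. The receptor and kinase genes Ifngr1, Jak1 and Jak2 did not pass the test: Ifngr1 gave 0.20, Jak1 0.20 and Jak2 0.14. Stat2, at 6.53, 4.49 and 5.33 CPM before and 17.1, 17.8 and 19.0 CPM after, did not overlap between the groups but had an adjusted p of 0.14. None of the 9 tested feedback inhibitors of the pathway passed the test, where 0.615% of all genes tested did. Socs1, the main inhibitor of JAK1 and JAK2, gave 0.24 ± 0.43, with 5.88, 9.89 and 8.72 CPM at 0 h and 12.4, 3.57 and 11.7 CPM at 24 h, and that sign turned without the third 24 h library (−0.11).

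The interferon-driven GTPases were among the risers. Guanylate-binding proteins coat and break the vacuoles of intracellular microbes, and 5 of the 9 tested rose: Gbp2, Gbp3, Gbp4, Gbp6 and Gbp7, each also called in all leave-one-out fits. The list median was 1.43, and 8 of the 9 did not overlap between 0 h and 24 h. Gbp2 (chr3:142620602-142638008, plus) stood at 214, 238 and 194 CPM at 0 h and at 749, 659 and 829 CPM at 24 h. Its log2 rise was 1.80 ± 0.13 (edgeR, adjusted p = 3.30e-14). Gbp4 (chr5:105115767-105139586, minus) went from 162, 218 and 112 CPM to 875, 706 and 498 CPM, a log2 rise of 2.09 ± 0.20. Every 24 h sample of both genes stood far above every 0 h sample. Gbp7 rose by 1.36 ± 0.14, Gbp6 by 1.43 ± 0.24 and Gbp3 by 1.07 ± 0.18, while Gbp9 missed the test with 1.02 and an adjusted p of 0.053. The genes of this family are alike and lie side by side, and Gbp6 overlaps Gm43302, so reads may be split between them.

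Immunity-related GTPases, the other family of vacuole-attacking GTPases, rose in 7 of 11 tested members, with a list median of 1.12 and no overlap between the groups in 9. Iigp1 stood at 400, 371 and 322 CPM at 0 h and at 909, 851 and 982 CPM at 24 h, a log2 rise of 1.33 ± 0.15 (edgeR, adjusted p = 3.89e-08). Igtp (chr11:58199556-58207591, plus) went from 278, 289 and 236 CPM to 604, 503 and 608 CPM, a log2 rise of 1.10 ± 0.16. It lies on the same strand as Irgm2, which overlaps it and rose by 1.05 ± 0.19. Irgm1, which regulates the other members, went from 398, 426 and 358 CPM to 710, 719 and 806 CPM, a log2 rise of 0.93 ± 0.13. Ifi47, Gm4951 and F830016B08Rik were the other members called. Gm4951 kept its call in 1 of the 6 leave-one-out fits and F830016B08Rik in 0. Gm12250 had the second largest rise among the genes kept in every fit (log2 2.14 ± 0.26). It went from 22.2, 14.4 and 15.5 CPM to 77.7, 76.1 and 77.0 CPM. The annotation used types Gm12250 as a processed pseudogene, a label that was not examined here and does not settle whether it encodes a protein. Tgtp1 and Tgtp2, near-identical copies, were the most abundant members: Tgtp1 stood at 603, 666 and 607 CPM at 0 h and at 1437, 1966 and 1526 CPM at 24 h, without overlap, yet with an adjusted p of 0.62.

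**Figure D2:**
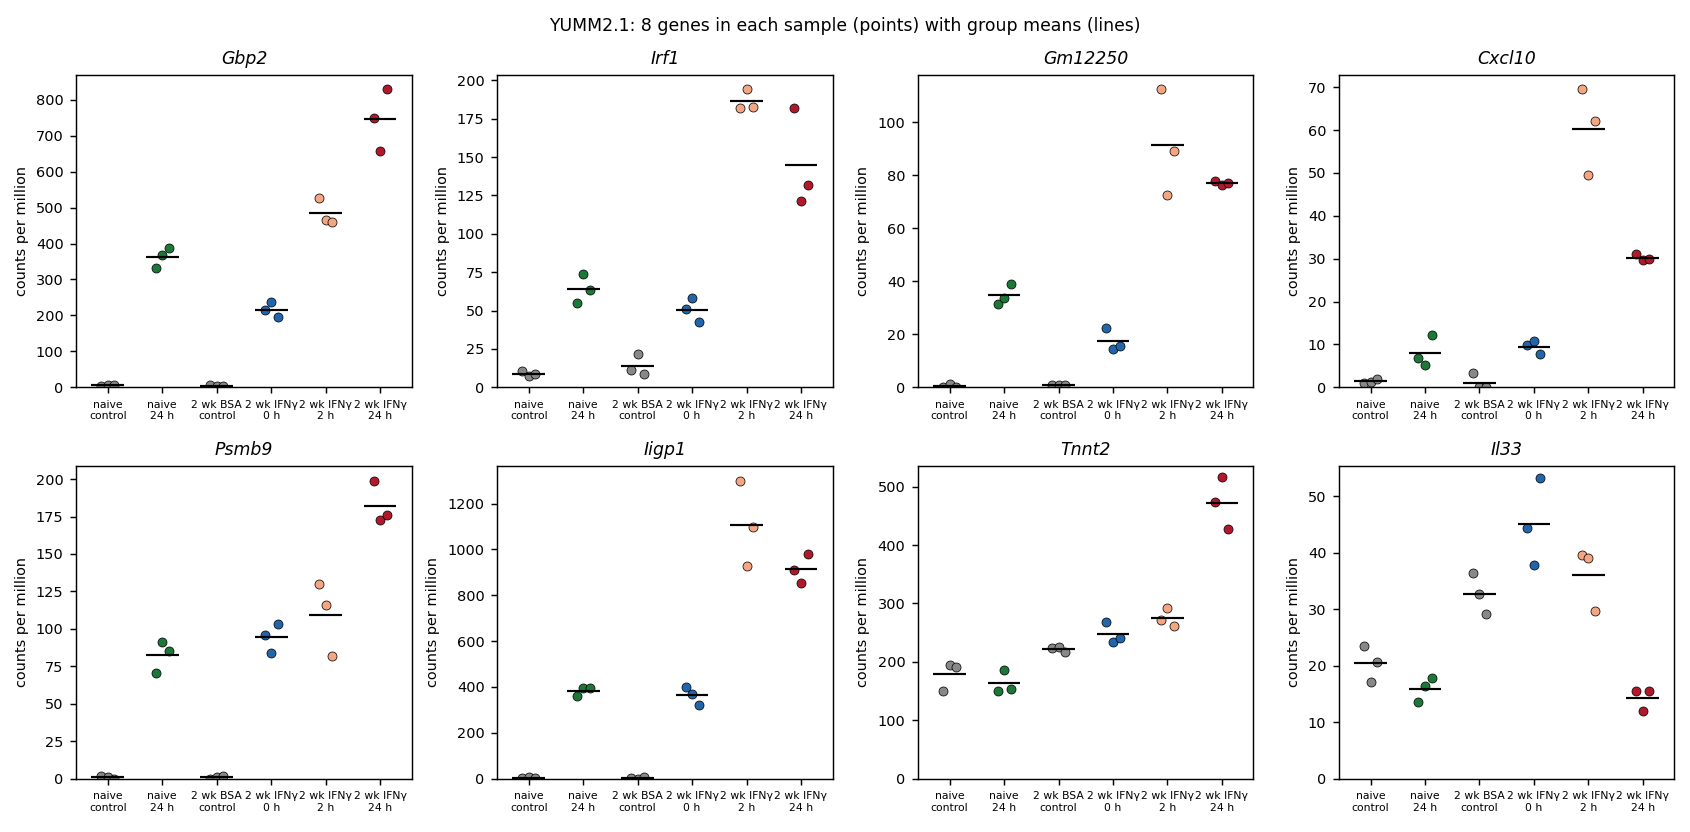
CPM (vertical axis, from 0) of 8 genes in each YUMM2.1 sample, with points for samples and lines for the means of 3, in naive control cells, naive cells after 24 h of IFNγ, the 2-week BSA control, and cells with 2 weeks of IFNγ at 0, 2 and 24 h of fresh IFNγ. For Gbp2, Gm12250, Psmb9 and Iigp1 the 2-week 0 h samples already stand far above both controls, and the 24 h samples stand above them. Tnnt2 rises and Il33 falls at 24 h after 2 weeks.

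The immunoproteasome, the form of the proteasome that cuts peptides for MHC class I, rose as a whole. All 5 tested subunits passed the test, with a list median of 0.82 and no overlap between the groups in any. Psmb9 (chr17:34181987-34187764, minus), a catalytic subunit, stood at 96.0, 83.6 and 103 CPM at 0 h and at 199, 172 and 176 CPM at 24 h, a log2 rise of 0.94 ± 0.17 (edgeR, adjusted p = 0.00105). Psmb10, another catalytic subunit, went from 295, 324 and 276 CPM to 531, 545 and 506 CPM, a log2 rise of 0.82 ± 0.13. The activator subunits Psme2 and Psme1 rose by 0.63 ± 0.11 and 0.62 ± 0.15, and the catalytic subunit Psmb8 by 0.99 ± 0.25. Psmb8 and Psme1 lost the call in 5 of the 6 leave-one-out fits, and Psmb9 overlaps Tap1. The 3 catalytic subunits that these replace, Psmb5, Psmb6 and Psmb7, gave log2 changes of −0.12, 0.03 and −0.01, and none passed the test.

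The rest of the class I pathway moved less by 24 h. Of 14 tested genes for class I chains and peptide loading, 2 rose: H2-T22, a non-classical class I chain, by 0.77 ± 0.16, and Erap1, which trims peptides, by 0.88 ± 0.21. The list median was 0.43, and the 24 h samples stood wholly above in 5 of the 14. H2-T22 went from 134, 133 and 105 CPM to 210, 218 and 206 CPM, and its adjusted p became 0.132 without the third 0 h library. B2m, the light chain shared by all class I molecules, stood at 2764, 2044 and 2875 CPM at 0 h and at 2348, 2736 and 3414 CPM at 24 h, so that the groups overlapped. Its change of 0.15 ± 0.16 turned negative without the third 24 h library (−0.02). Tapbp, which bridges chain and peptide transporter, gave 0.55 with an adjusted p of 0.8, and H2-M3 0.79. MHC class II genes did not pass the test in any of the 4 tested (median 0.59).

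Antiviral genes rose in 9 of 30 tested members of the list, with a list median of 0.72 and 24 h samples wholly above in 18. Zbp1, a sensor of left-handed nucleic acid that can trigger cell death, went from 54.2, 52.1 and 32.5 CPM to 127, 145 and 117 CPM, a log2 rise of 1.5 ± 0.19 (edgeR, adjusted p = 4.96e-07). Ifit3, which binds viral RNA together with other IFIT proteins, went from 58.1, 63.8 and 44.1 CPM to 140, 122 and 114 CPM, a log2 rise of 1.19 ± 0.19. Its near copy Ifit3b was called too, and reads may be split between them. Rtp4 rose by 1.27 ± 0.17, and Ifitm3, which blocks virus entry, by 0.74 ± 0.13. The exonuclease gene Isg20, the ISG15-system genes Ube2l6 and Herc6, and tetherin (Bst2) were the other members called. Isg20, Ube2l6 and Bst2 each lost the call without the third 0 h library, with adjusted p-values of 0.0674, 0.114 and 0.128. Herc6 was less stable and kept its call in 1 of the 6 leave-one-out fits.

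Among secreted factors 2 of 8 tested genes rose. Il18bp, which encodes a decoy that binds and blocks IL-18, had 7.18, 14.4 and 11.2 CPM at 0 h and 51.3, 57.1 and 53.7 CPM at 24 h. This was a log2 rise of 2.33 ± 0.36 (edgeR, adjusted p = 3.96e-05), the largest among the genes kept in every fit. The gene overlaps the end of Numa1 on the other strand, and strand use in the counting is not given in the sources used here. Cxcl10, a chemokine that draws T cells, went from 9.80, 10.8 and 7.75 CPM to 31.1, 29.7 and 29.9 CPM, a log2 rise of 1.70 ± 0.35 with an adjusted p of 0.00538 that became 0.112 without the third 0 h library. Cxcl10 shares its locus with Art3. Il15ra, which presents IL-15 to lymphocytes, rose from 3.27, 3.60 and 4.85 CPM to 28.0, 9.51 and 11.7 CPM (log2 1.94 ± 0.47). Of the 7 tested ligands read by lymphocytes none passed the test: Cd274 stood at 4.57, 7.19 and 2.91 CPM at 0 h and at 6.22, 5.95 and 16.4 CPM at 24 h.

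None of the 7 interferon-induced PARPs and Dtx3l passed the test at 24 h, although their median was 1.15 and 4 of them did not overlap between the groups. Parp14, the enzyme that the study follows, gave 1.16 ± 0.41 (edgeR, adjusted p = 0.42), with 9.32, 25 and 16.4 CPM at 24 h above 6.53, 8.09 and 8.24 CPM at 0 h. Parp9 gave 0.97 and Parp11 1.15, with adjusted p-values of 0.25 and 0.16.

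Several risers belong to none of the listed interferon groups. Tnnt2 (chr1:135836354-135852260, plus), which encodes cardiac troponin T, stood at 268, 234 and 240 CPM at 0 h and at 474, 517 and 427 CPM at 24 h. Its log2 rise of 0.93 ± 0.11 (edgeR, adjusted p = 1.50e-07) was kept in every fit and is below a minimum log2 change of 1. Id3, an inhibitor of basic helix-loop-helix factors and a target of TGFβ and BMP signals, went from 35.9, 32.4 and 35.9 CPM to 74.6, 71.3 and 98.7 CPM, a log2 rise of 1.26 ± 0.23 with an adjusted p of 0.000703 that became 0.0647 without the third 24 h library. It was the only riser among 19 tested genes of TGFβ signalling (median 0.23). Insl6, an insulin-like peptide gene, rose by 0.93 ± 0.18, the gluconokinase gene Idnk by 0.81 ± 0.15, the LIM-domain gene Pdlim5 by 0.89 ± 0.19 and the peroxiredoxin gene Prdx5 by 0.48 ± 0.11. Insl6 and Idnk also rose at 24 h of IFNγ in naive cells, by 2.68 and 1.09 (edgeR, adjusted p = 1.45e-11 and 1.38e-05). Tnnt2, Id3, Pdlim5 and Prdx5 were not called there.

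A few rises rested on very few counts. Olfr46, an olfactory receptor locus, had no count in any 0 h library and 31 counts at 24 h, at least 3.30-fold higher if 3 counts per library are taken as the floor. It stood at 4.39 ± 2.15 CPM (SD, n = 3) in the 2-week BSA control and at 3.96 CPM in naive control cells. Gm7351, a processed pseudogene that overlaps Glra3, had 5 counts at 0 h and 29 at 24 h, a ratio of 7.19 (exact 95% interval 2.75 to 23.8), and it too was higher in the 2-week BSA control (4.74 CPM) than at 0 h (1.08 CPM). Ly6a, the surface protein Sca-1, had 5 counts at 0 h and 43 at 24 h, a ratio of 10.7 (4.23 to 34.5). The intervals cover counting error only.

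The 8 genes that fell were led by Il33, a cytokine released by damaged cells. Il33 (chr19:29925114-29960718, plus) stood at 44.4, 37.8 and 53.3 CPM at 0 h and at 15.5, 11.9 and 15.6 CPM at 24 h. It fell by 1.64 ± 0.25 on the log2 scale (edgeR, adjusted p = 2.63e-05) and was the only faller called in every leave-one-out fit. Il1rap, the accessory chain of the receptors for IL-1 and IL-33, fell by 0.70 ± 0.16, from 149, 233 and 148 CPM to 113, 77.3 and 125 CPM. Prkacb, a catalytic subunit of protein kinase A, fell by 1.35 ± 0.34, the apolipoprotein gene Apod by 1.14 ± 0.28 and the clathrin adaptor gene Ap1b1 by 1.04 ± 0.26. The actin-severing protein gene Gsn fell by 0.67 ± 0.16 and the protease inhibitor gene Cst6 by 0.58 ± 0.15. Prkacb kept its call in 0 of the 6 leave-one-out fits, Apod and Ap1b1 in 1 each, Gsn and Cst6 in 2 each and Il1rap in 4. Prkacb and Cst6 also lost the call with DESeq2. The median of the 8 was −0.87.

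Eno1, the glycolytic enzyme enolase, was the most abundant of the called genes that fell, from 1580, 1505 and 1560 CPM to 1088, 1153 and 1291 CPM, and fell by 0.39 ± 0.09 (edgeR, adjusted p = 0.0269). It was the only called member of 14 tested genes of hypoxia and glycolysis, whose median was −0.25, and 5 of the 14 had all 24 h samples below all 0 h samples. Ldha, lactate dehydrogenase, was one of these with −0.40 and an adjusted p of 0.15. Eno1 lost the call in 4 of the 6 leave-one-out fits.

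Several lists showed no call, where 0.615% of all genes tested were called. Lists of these sizes with no call are near that share, here and for the feedback inhibitors, MHC class II genes, ligands and PARPs above. None rose or fell among 24 tested genes of DNA replication and mitosis (median 0.01), 13 of sterol synthesis (0.11), 12 of the ER stress response (0.03), 20 immediate-early genes (0.06), 10 NF-κB subunits and targets (0.12), 10 cell death genes (0.25), 4 interferon-driven enzymes (0.35) and 4 melanocyte genes (−0.08). Among all 9589 genes, 577 had an unadjusted p under 0.05 in edgeR's test. The single tested member of the complement list, Serpina3g, was not called. The plot by gene list shows the tested members.

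**Figure D3:**
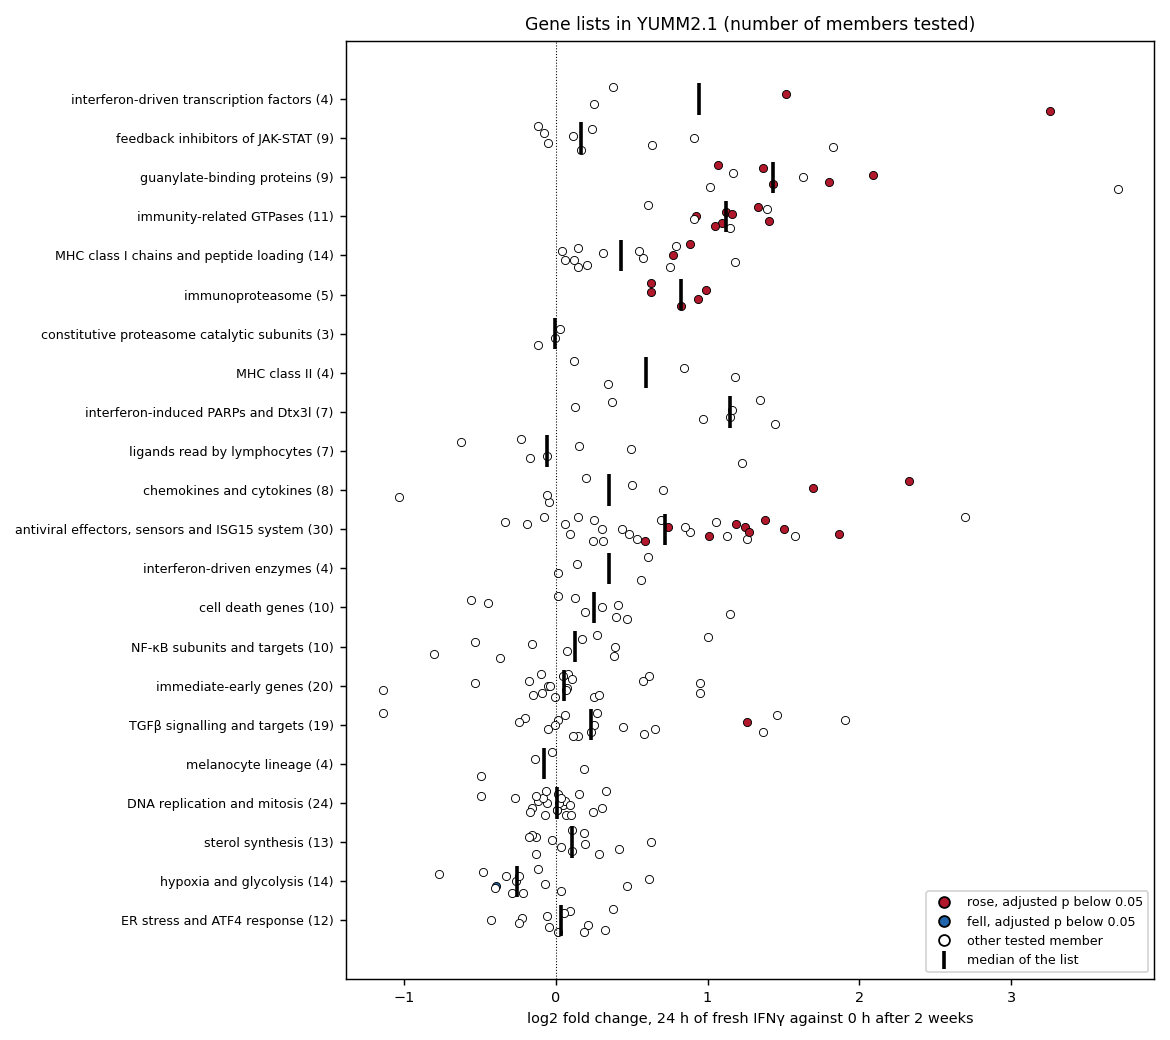
Log2 fold change from 0 h to 24 h of fresh IFNγ after 2 weeks of IFNγ (horizontal axis) for each tested member of 22 gene lists with at least 3 tested members, one list per row, with called genes filled and the list median as a bar. The guanylate-binding proteins, immunity-related GTPases and immunoproteasome lie to the right of zero with most or all members called. The PARP list, with none called, has a median of 1.15, near that of the immunity-related GTPases (1.12) and below that of the guanylate-binding proteins (1.43).

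Some of the rises differed in their timing. At 2 h of fresh IFNγ 40 genes rose and 1 fell (0.428% of genes tested), against the same 0 h samples, so the 2 h and 24 h values share their reference. Of the 51 risers at 24 h, 25 were called at 2 h as well, and the median log2 fold change of the 51 was 1.18 at 2 h and 1.19 at 24 h. Both GTPase families were up early: 4 of the 9 guanylate-binding proteins and 7 of the 11 immunity-related GTPases were called at 2 h, and Iigp1 stood at 1.61 at 2 h and 1.33 at 24 h. Irf1 stood at 1.90 at 2 h and 1.51 at 24 h, and Cxcl10 at 2.71 and 1.70. No immunoproteasome subunit was called at 2 h, against 5 of 5 at 24 h. At 2 h Psmb8 gave 0.42, Psmb9 0.22, Psmb10 0.14, Psme2 0.23 and Psme1 0.04. In the direct test of 24 h against 2 h, given next, only Psmb10 of the 5 passed. Psmb9 gave 0.72 there with an adjusted p of 0.11 (edgeR) and Psmb8 0.57 with 0.77.

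A direct test of 24 h against 2 h called 9 genes (0.0939%), 4 higher and 5 lower at 24 h. Zbp1 was higher by 1.18 ± 0.19, with 56.7 ± 4.8 CPM at 2 h and 130 ± 14 CPM at 24 h (SD, n = 3). Tnnt2 was higher by 0.77 ± 0.11, Psmb10 by 0.68 ± 0.13 and Gbp2 by 0.62 ± 0.12. Il33 was lower by 1.31 on the log2 scale, with 36.1 CPM at 2 h and 14.3 CPM at 24 h. The other 4 lower genes, Junb (−1.46), Skil (−1.34), Ccn1 (−1.05) and Hbegf (−0.79), are early-response genes, and none of them was called at 24 h against 0 h. These 9 genes were named after their values were seen. With 1 library left out the test called 3 to 5 genes.

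The samples at 0 h were not a resting state. Against the 2-week BSA control, 107 genes differed after 2 weeks of IFNγ alone (1.12%), 86 higher and 21 lower, and 38 of the 51 later risers were already among the higher ones. Iigp1 stood at 2.81 CPM in the control, 364 CPM after 2 weeks of IFNγ and 914 CPM after the further 24 h. Psmb9 stood at 0.913, 94.3 and 182 CPM in the same order. The 2-week samples at 24 h differed from the 2-week control in 197 genes (2.05%), and 48 of the 51 risers were higher there. The 51 risers stood at a median of 2.73 above the control at 0 h and of 3.63 at 24 h on the log2 scale, with 7 genes that had no count in the control set at their bound of 3 counts per library (2.89 and 4.59 as fitted). Of the 8 fallers, only Il1rap differed from the control at 0 h, where it was higher (0.66). These comparisons share samples with the 24 h rechallenge.

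In naive cells 24 h of IFNγ moved 85 genes (0.886%), 82 up and 3 down. These samples are separate from the 2-week samples. Of the 51 genes that rose after 2 weeks, 42 also rose in naive cells, which is 82.4% of the 2-week risers and 51.2% of the naive risers. None of the 8 fallers was called in naive cells, which is near the share over all genes (0.886%). There Il33 gave −0.35 and Eno1 −0.19. The difference between the 2 responses of Il33 did not pass the test (−1.29 ± 0.36, edgeR, adjusted p = 0.148), and Il33 also fell after 1 week, by 1.10 (adjusted p = 0.00994).

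The response was smaller in fold after 2 weeks, and the difference was tested. In a test of the 2-week 24 h response less the naive 24 h response, 46 of all genes passed (0.480%), 44 of them smaller after 2 weeks and 2 larger. Iigp1 rose by 7.42 in naive cells and by 1.33 after 2 weeks, a difference of −6.09 ± 0.36 (edgeR, adjusted p = 2.69e-17). For Psmb9 the difference was −5.39 ± 0.46 and for Gbp2 −4.29. In the naive control Iigp1 stood at 2.60 ± 1.98 CPM and Psmb9 at 0.95 ± 0.85 CPM (SD, n = 3). The sizes of these 2 differences therefore rest on few counts there. Irf1 gave 2.82 in naive cells, 1.51 after 2 weeks and a difference of −1.31. The 2 larger responses were those of Id3 (1.5 ± 0.31) and Tnnt2 (1.06 ± 0.16). Tnnt2 gave −0.13 in naive cells, where it stood at 179 ± 25 CPM in the control and 163 ± 19 CPM at 24 h (SD, n = 3). After 1 week Tnnt2 rose as well, by 1.005 ± 0.115 (edgeR, adjusted p = 1.42e-08). The 2-week less the 1-week response of Tnnt2 was −0.08 ± 0.16, so its rise was not particular to 2 weeks. Id3 gave 0.24 ± 0.21 after 1 week and was not called there (adjusted p = 0.83). Mean Id3 was 34.7 CPM at 2-week 0 h, 52.3 CPM in the 2-week control and 74.5 CPM in the naive control. Id3 reached 81.5 CPM at 24 h after 2 weeks and 61.4 CPM in naive cells, a difference not past the test (edgeR, adjusted p = 0.62). Nor did its 0 h level differ from the 2-week control by that test (−0.59 ± 0.24, adjusted p = 0.46). The 2-week risers include genes picked for a rise, so their own share of these calls is no separate evidence.

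**Figure D4:**
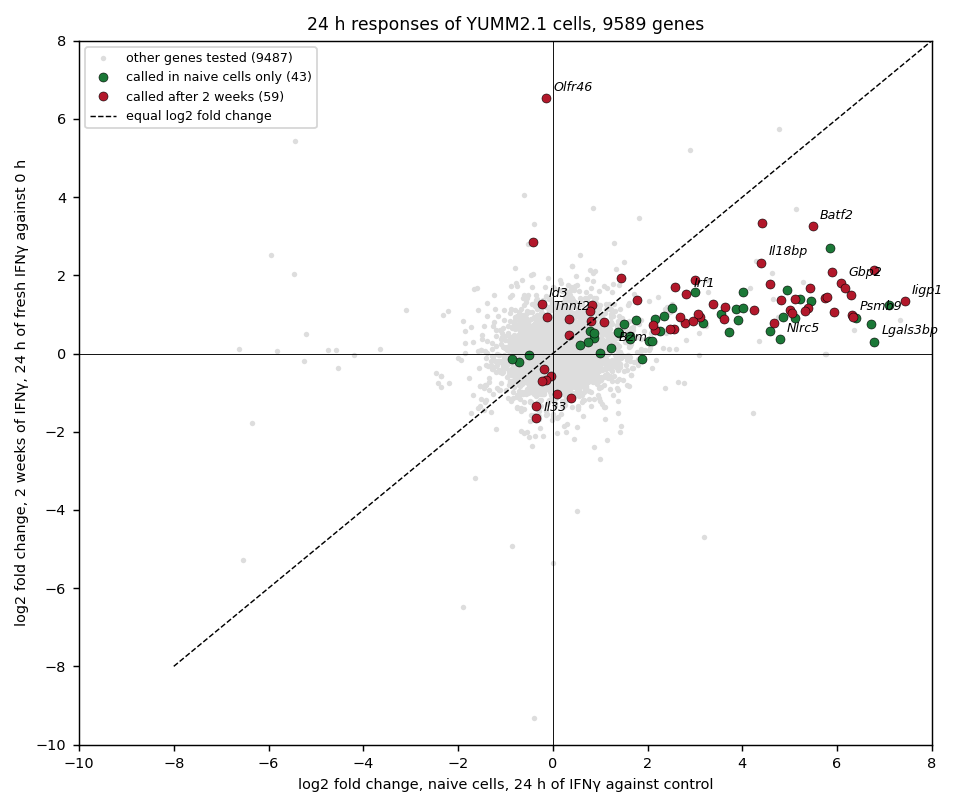
Log2 fold change at 24 h of IFNγ in naive YUMM2.1 cells (horizontal axis) against that at 24 h of fresh IFNγ after 2 weeks of IFNγ (vertical axis), one point per gene tested, with the dashed line at equal change. Of the 82 genes that rose in naive cells 81 lie under the line, and Tnnt2 and Id3 lie above it near zero on the horizontal axis.

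The 82 naive risers were chosen for their rise in naive cells, which favours a smaller fold elsewhere, so their values are a description. Of the 82 naive risers, 81 had a positive log2 fold change after 2 weeks and 42 passed the test, with a median of 0.95. In naive cells their median was 3.68 as fitted and 3.09 with the 6 genes that had no count in the naive control set at their bound, and 81 of the 82 changed less after 2 weeks. Counted as a difference in CPM, 43 of the 82 gained more after 2 weeks than in naive cells, with a median gain of 41.7 against 31.0 CPM, and 4745 of all 9589 genes did so, a like share. Before fresh IFNγ, 64 of the 82 already stood higher than in the 2-week control. The 40 naive risers not called after 2 weeks included Nlrc5 (0.38 after 2 weeks), Tap1 (0.58), Tap2 (0.76), Tapbp (0.55), B2m (0.15) and H2-D1 (0.31), all of the class I pathway and all higher than the 2-week control at 0 h.

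The levels reached at 24 h were compared between naive and 2-week cells, and 79 genes differed (0.824%), 64 higher and 15 lower after 2 weeks. Of the 82 naive risers 27 were higher after 2 weeks and none was lower, with a median of 0.77. Of the 51 2-week risers 27 were higher and none lower, but these were picked for a rise in the same 24 h libraries. Their share is therefore no separate evidence. Iigp1 reached 914 ± 65 CPM after 2 weeks and 384 ± 20 CPM in naive cells, Gbp2 746 ± 85 against 363 ± 28 CPM and Irf1 145 ± 32 against 64.0 ± 9.4 CPM (SD, n = 3). The largest differences were in MHC class II genes, whose products present peptides to CD4 T cells. H2-Aa had no count in naive cells at 24 h and stood at 7.81 CPM after 2 weeks, H2-Eb1 stood at 0.375 and 6.96 CPM, and H2-DMb1 at 2.75 and 39.3 CPM (log2 difference 3.93 ± 0.49). Before fresh IFNγ they stood at 6.11, 6.80 and 17.2 CPM, where H2-Aa and H2-DMb1 were already called higher than the 2-week control and H2-Eb1 was not (adjusted p = 0.13). None of the 3 was called for a change at 24 h. Fbxl13 (3.25) and Pigg (2.80) followed. Among the 15 lower genes were Ldha (−0.67) and Eno1 (−0.46).

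The rechallenge was also given after other lengths of exposure. After 1 week 107 genes rose and 29 fell at 24 h, and 47 of the 51 2-week risers were among the former, with a median of 1.88 against 1.19. The difference between the 2 responses passed the test for 8 genes (0.0834%), all with a smaller rise after 2 weeks: Gbp2 (−1.84 ± 0.19), Gbp6 (−1.80), Gbp3 (−1.67), Rtp4 (−1.54), Igtp (−1.49), Gbp4 (−1.49), Iigp1 (−1.34) and Irgm1 (−0.89). Without a filter on low counts the same test called 57 genes, 31 with a larger and 26 with a smaller response after 2 weeks, so the single direction was not kept there. Iigp1 started from 146 ± 16 CPM after 1 week and from 364 ± 39 CPM after 2 weeks, and reached 945 ± 64 and 914 ± 65 CPM (SD, n = 3). Gbp2 started from 66.2 and 216 CPM and reached 891 and 746 CPM.

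After 3 weeks no gene was called at 24 h by edgeR's quasi-likelihood test, while 351 had an unadjusted p under 0.05 and DESeq2 called 1, and the 51 2-week risers had a median of −0.01, with 25 above zero. The responses at 2 and 3 weeks differed in 17 genes (0.177%), 16 with a larger rise after 2 weeks. Gbp2 differed by 1.97 ± 0.19, Gbp4 by 2.40 ± 0.30, Gbp6 by 2.03 ± 0.38 and F830016B08Rik by 1.96 ± 0.45. Gm7351, with few counts, gave 4.02, and the 1 gene with a lower value was Il33 (−1.67), which stood at 34.0 CPM at 0 h and 37.1 CPM at 24 h after 3 weeks. Iigp1 stood at 240 ± 12 and 239 ± 31 CPM there (SD, n = 3). One of the 3-week 0 h libraries held 274719 counts, and without it 14 genes differed between the 2 responses. Without the third 2-week 0 h library 7 did.

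In CT26 cells, which share no sample with YUMM2.1, the same rechallenge moved 56 of 8516 genes (0.658%), 51 up and 5 down. Of the YUMM2.1 risers 48 were tested in CT26, and all 48 had a positive log2 fold change there. Both lines raised 29 genes, 60.4% of the YUMM2.1 risers and 61.7% of the CT26 risers tested in both. Gbp2 rose by 2.60 in CT26, Irf1 by 1.81, Zbp1 by 2.00 and Psmb9 by 1.11, while Cxcl10 gave 0.55 and Tnnt2 0.47, neither past the test. Of the 4 fallers tested in CT26 none was called, which is near the share over all genes there (0.658%), and Il33 was not tested.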

How the data were processed

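Per the labels, RNA was extracted with RNeasy kits and sequenced by 3′ digital gene expression. The authors deposited 1 table of gene counts, made with Salmon 0.13.1 on mm10 per the submitters' processing notes and summed to genes with tximport per the study's methods. The annotation release, the use of strand and molecular identifiers are not given in the sources used here. The study discarded 1 YUMM2.1 sample without naming it, and all samples were kept here. Of 53697 gene identifiers, 53668 matched a symbol of GENCODE M21 (GRCm38), which gave the coordinates.

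The counts of all 45 YUMM2.1 samples were fitted together by group in edgeR 4.0.16 (filterByExpr, TMM, quasi-likelihood test) under R 4.3.3 with limma 3.58.1, and CT26 apart. The Benjamini-Hochberg adjusted p threshold was 0.05. CPM used TMM library sizes and no prior count. The fit was tested on simulated counts with known changes. DESeq2 1.42.0, library totals in place of TMM, no filter on low counts, a replicate block, the compared groups alone, a minimum log2 change of 1, and omission of the shallow sample or of each replicate were the alternatives.

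The members and gene lists were chosen with earlier results of these data known. The rule for named genes took the 20 largest risers and 8 largest fallers among called genes without overlap between groups, Parp14, Irf1, Cd274, B2m, Socs1 and Nlrc5, a few examples per list and the top 5 of each difference between responses. One further gene of the rule is not reported here. Other called genes were named after their values were seen. Ratios of few counts and their intervals cover counting error only.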

Additional observations from a re-analysis of the deposited data

Results flagged for a closer look

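The tests of a difference between 2 responses to 24 h of IFNγ marked these results, each from an interaction term in edgeR's quasi-likelihood fit with Benjamini-Hochberg adjustment. Between naive cells and cells with 2 weeks of IFNγ, 46 genes differed. The values, as the 2-week less the naive log2 change, were −6.09 for Iigp1 (adjusted p = 2.69e-17), −5.39 for Psmb9 and −5.32 for Psmb8. In the naive control these genes stood at 2.60 ± 1.98, 0.95 ± 0.85 and 0.41 ± 0.70 CPM in that order (SD, n = 3). The sizes of their differences therefore rest on few counts there. Lgals3bp gave −6.48 and Ubd −5.85, but neither had a count in the naive control, so these fitted values depend on the prior count and are no bound.

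Between 1 and 2 weeks 8 genes differed, with −1.84 for Gbp2, −1.80 for Gbp6, −1.67 for Gbp3, −1.54 for Rtp4 and −1.49 for Igtp. Between 3 and 2 weeks 17 genes differed, with 4.02 for Gm7351, 2.40 for Gbp4, 2.03 for Gbp6, 1.97 for Gbp2 and 1.96 for F830016B08Rik. Gm7351 rested on 5 counts at 0 h and 29 at 24 h. The differences share the 2-week samples. Groups of 3 samples were not tested for single outlying samples.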

How the results depend on the processing

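The 59 genes called at 24 h became 62 with DESeq2 (56 of the 59 among them), 59 with library totals (53), 83 without a filter on low counts (49), 58 with the compared groups alone (50), 60 without the shallow sample (59) and 38 with a log2 change of at least 1. Without a filter the other counts were 81 at 2 h, 36 for 24 h against 2 h, 74 for the difference from naive cells, 57 from 1 week (31 larger after 2 weeks, against 0 of 8), 52 from 3 weeks (34 larger, against 16 of 17), 122 for the level against naive cells and 98 in CT26. DESeq2 gave 23, 18 and 122 for 24 h against 2 h, the difference from 1 week and the level against naive cells, and library totals gave 16 and 13 for the first 2 of these. With a log2 change of at least 1 they were 5 for 24 h against 2 h, 37 for the level and 34 in CT26. The share of higher calls for 24 h against 2 h went from 44.4% to 56.5% with DESeq2 and 68.8% with library totals, and with library totals it went from 97.6% to 86.8% at 2 h and from 81.0% to 69.6% for the level against naive cells. The causes were not tested.

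With 1 replicate left out the counts ranged from 27 to 55 at 24 h (27 without the third 0 h library, with 26 of the 59 kept), 25 to 41 at 2 h (25 without the first 2 h library), 3 to 5 for 24 h against 2 h, 69 to 81 in naive cells, 36 to 48, 5 to 11 and 7 to 16 for the differences from naive, 1 week and 3 weeks, 52 to 84 for the level against naive cells (52 without the first 2-week 24 h library), 151 to 172 against the 2-week control, 72 to 94 at 0 h against that control and 31 to 49 in CT26 (31 without the second 0 h library). No called gene changed sign under any alternative. Uncalled genes did: Psmb6 gave −0.0055 without a filter. With 1 library left out, Psmb6 ranged from −0.012 to 0.048, Ngfr from −0.32 to 0.011, Insig1 from −0.016 to 0.89, Socs1 from −0.11 to 0.55 and B2m from −0.025 to 0.26.

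Same-numbered replicates at 0 h and 24 h had deviations with correlations of −0.047, 0.0344 and 0.128, so the numbers were not taken to pair the samples. With the replicate block 61 genes were called at 24 h, 56 of the 59 among them. Another prior count was not run. Levels were CPM without one, but the fitted log2 fold changes use that of edgeR's fit. Depth limits the calls of genes with few counts, and p-values adjusted with 3 samples per group rest on spread shared across groups.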
